A study of Danio rerio with 30 samples.

Results

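Heads of control zebrafish at 30 dpf (days after fertilisation) were set against heads of control zebrafish at 20 dpf, 3 arrays against 3, out of 30 arrays in the whole study. The members were chosen by the labels alone, as the arrays that carry the standard control treatment and the age of 30 or 20 dpf. Each array was an Affymetrix ZebGene 1.0 ST array hybridised with total RNA from a pool of 5 AB strain fish, taken from the part of the body anterior to the gills. Each gene was read from its brightest probe set, and 19260 genes were compared.

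In all, the study has 10 groups of 3 pools, 5 that received a grb10a knockdown morpholino and 5 that received a standard control morpholino, each at 5, 10, 15, 20 and 30 dpf. A morpholino is a synthetic antisense oligonucleotide, and the knockdown one was directed at a splice donor site of grb10a, whose product is an adaptor on receptors of insulin and of insulin-like growth factors. The control one was directed at human beta-globin, so the control fish are injected fish and not untouched ones. All embryos were injected into the yolk once, at the earliest cleavage stages, and also received blue fluorescent reporter mRNA, by which evenly labelled embryos were kept. A morpholino is diluted as the embryo grows, so the label says what the fish were injected with and not what they still held at 20 or 30 dpf. The fish of the control groups were pooled before measurement, so the spread given here is between pools and single fish were not seen. The p-values and SE rest on the spread between pools over all 10 groups, not only on the SDs printed for the control groups.

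These ages span the end of larval life in zebrafish. In this period the larva becomes a juvenile: the larval fin fold is lost, muscle mass grows, the skull and teeth mineralise, scales and adult pigment stripes form, and the lymphocytes of the adaptive immune system mature in the thymus, which lies beside the gills. Larval protein isoforms, such as embryonic globins, are replaced by adult ones. Size rather than age in days sets how far a larva has come, and body length is not among the values used here.

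Values are log2 signals as deposited, so a difference of 1 is a doubling on this scale. They are given as 30 dpf first and 20 dpf second, differences are 30 minus 20 dpf with their standard error (SE), and a value with ± is the mean and SD of a group (n = 3). "Rose" and "fell" are used only for an adjusted p under 0.05 (limma, Benjamini-Hochberg over all 19260 genes). Signals under 6.06, the limit of the dimmest 33.3% of genes, may sit on background that was not measured, so a difference with one mean under this limit may be understated. Microarray signals do not compare between genes, and no level of one gene is set against that of another. In heads pooled whole, fewer cells of a type and less RNA per cell cannot be told apart.

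Between the 2 ages 31.5% of the genes passed the test, 4235 genes (22.0%) higher and 1826 genes (9.48%) lower at 30 dpf. These shares are the background for every list of genes below. All 3 arrays at 30 dpf lay above all 3 at 20 dpf in 31.9% of genes and below them in 19.5%, the background for statements that the ages do not overlap. The 20 largest rises and 20 largest falls were picked among called genes without overlap, so in those genes it follows from the choice. A rise of at least 2-fold was seen in 678 genes and a fall of that size in 63; the median difference over all genes was 0.05. The 3 arrays of the 30 dpf group correlated with each other at 0.986 to 0.988 and the 3 of the 20 dpf group at 0.985 to 0.990, against 0.940 to 0.959 between the ages. The median signal of an array lay between 5.51 and 5.63 over all 30 arrays. The signal of grb10a was 8.53, 8.42 and 8.42 at 30 dpf and 8.50, 8.31 and 8.37 at 20 dpf, a difference of 0.06 (SE 0.12, adjusted p = 0.746), so the target gene of the other arm overlapped between these ages. In knockdown heads grb10a was at 8.42 ± 0.14 at 30 dpf and 8.16 ± 0.09 at 20 dpf, and the 2 treatments did not pass the test at either age (adjusted p = 0.940 and 0.187); a splice-directed morpholino need not lower the transcript. Neurons (elavl3, syt1a), cones (gnat2), lens (cryaa), muscle (ckma, acta1b), cartilage (matn1) and epidermis (krt4, krt5) were all read at group means above 6.06, which are tissues of the head. Of the pituitary markers gh1 was at 8.47 at 30 dpf and 8.13 at 20 dpf, prl at 6.08 and 6.02, and pomca under 6.06 at both ages, and the rod opsin rho was not among the genes tested. Counts of 5 or fewer members of a list often changed by over 1.5 times when 1 pool was left out; larger counts that did so are given below with the pool.

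**Figure D1:**
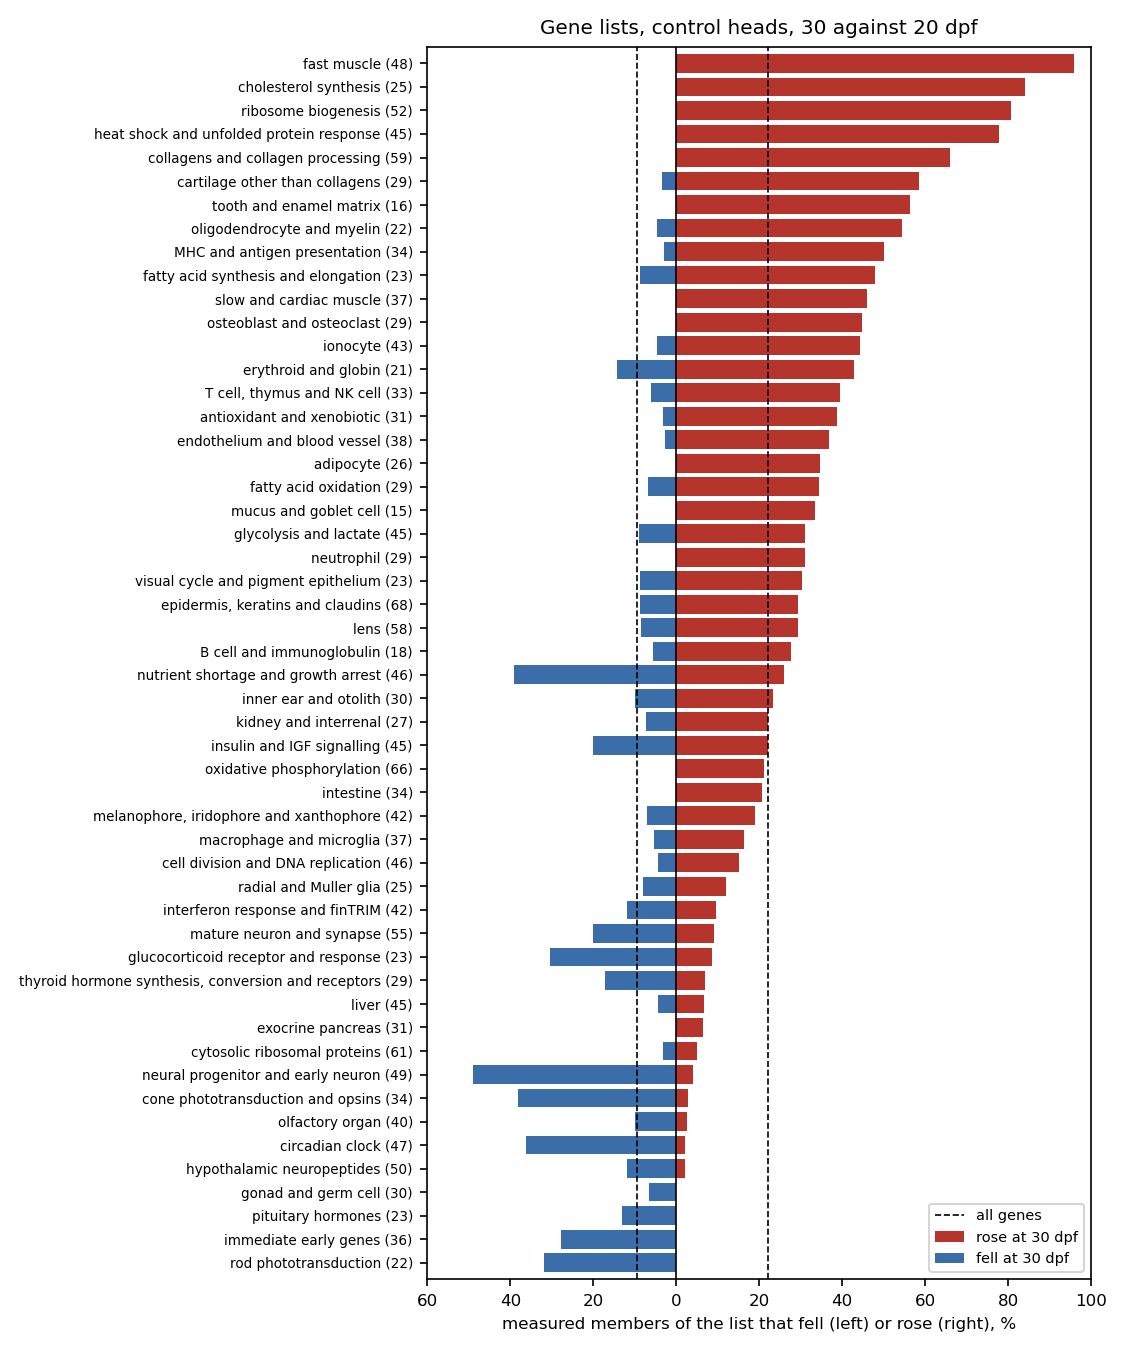
Share of the measured members of each gene list that rose (right) or fell (left) in control heads at 30 dpf relative to 20 dpf, in percent, with the number of measured members beside each name. Dashed lines mark the shares over all 19260 genes, 22.0% higher and 9.48% lower; fast muscle (95.8%), cholesterol synthesis (84.0%), ribosome biogenesis (80.8%) and the chaperones (77.8%) lie farthest above the right line, and neural progenitors (49.0%) farthest beyond the left one.

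The strongest coordinated rise was in fast skeletal muscle. Of 48 measured genes of the fast muscle list 46 rose and 0 fell (95.8%, against 22.0% of all genes), with a median difference of 1.41. A myosin heavy chain had the largest rise of the list. This gene, myhb, was at 11.95 ± 0.09 at 30 dpf, against 8.91, 8.76 and 8.56 at 20 dpf, 9.24-fold higher (log2 difference 3.21, SE 0.24, adjusted p = 2.29e-10). The groups lie far apart, with the 3 arrays at 30 dpf close together. Another fast heavy chain, myhz2, was at 12.01 ± 0.07 against 9.74 ± 0.12, a rise of 2.27. The Z-disc actinin actn3a rose by 2.32, the inhibitory troponin tnni2b.2 by 2.3, the calcium-storing calsequestrin casq1a by 2.28 and myoz1a, which binds actinin and calcineurin, by 2.5. The mean signal of the list's members was 10.04 ± 0.10 at 30 dpf and 8.63 ± 0.08 at 20 dpf; in controls it had been 8.63 at 5 dpf, 7.42 at 10 dpf and 8.11 at 15 dpf, so the level at 30 dpf is the highest of the 5 ages.

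Slow and cardiac muscle genes rose less widely, 17 of 37 with 0 falls (45.9%) and a median of 0.43. Heart genes separated the 30 dpf pools from one another. The cardiac myosin light chain myl7 was at 5.85, 8.04 and 8.49 at 30 dpf, against 4.72, 5.33 and 4.73 at 20 dpf, a rise of 2.53 (SE 0.50, adjusted p = 0.000334). The first pool at 30 dpf is thus much closer to the 20 dpf pools than the other 2 are, although it still lies above them. The atrial heavy chain myh6 had the same order, 5.81, 7.18 and 7.88 at 30 dpf against 5.35, 5.78 and 5.44 at 20 dpf (rise 1.44, adjusted p = 0.00172), while the natriuretic peptide nppa was at 5.82 ± 0.34 against 5.57 ± 0.24 (adjusted p = 0.322). The heart lies behind the gills, outside the labelled tissue. Fast muscle did not share this split between pools: the list's mean signal ranged from 9.96 to 10.16 over the 3 arrays at 30 dpf, and myhb was as high in the first pool as in the third.

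Hox genes, which are expressed in the hindbrain and trunk in an order that follows their paralog number, moved beside the muscle genes; they were counted after their values were seen. Of 43 measured Hox genes 16 rose and 0 fell. The rises were in paralog groups 3 to 8, 12 of 18 with a median of 1.00, and in groups 1 to 2, 3 of 5, whereas 1 of 20 rose in groups 9 to 13 (median -0.12). The mean signal of groups 9 to 13 was 4.48 at 30 dpf and 4.55 at 20 dpf, both under 6.06, so a change there could go unseen. The means of groups 1 to 2 (5.38 and 4.83) and of groups 3 to 8 (5.94 and 4.91) lay under 6.06 as well. Hoxb4a, of a group whose front limit lies in the hindbrain, was at 7.5, 7.54 and 7.44 at 30 dpf, against 5.69 ± 0.30 at 20 dpf, a rise of 1.81 (adjusted p = 3.93e-06), and hoxc6a, of a trunk group, was at 6.02, 5.96 and 6.30 against 3.69, 3.67 and 4.16 (rise 2.26). All 3 pools at 30 dpf lie above all 3 at 20 dpf for both. Over groups 3 to 8 the mean signal in controls was 6.29 at 5 dpf, 4.85 at 10 dpf, 4.88 at 15 dpf, 4.91 at 20 dpf and 5.94 at 30 dpf. No source used here says how far back the heads were cut at each age, and its part in the muscle and Hox rises was not tested.

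**Figure D2:**
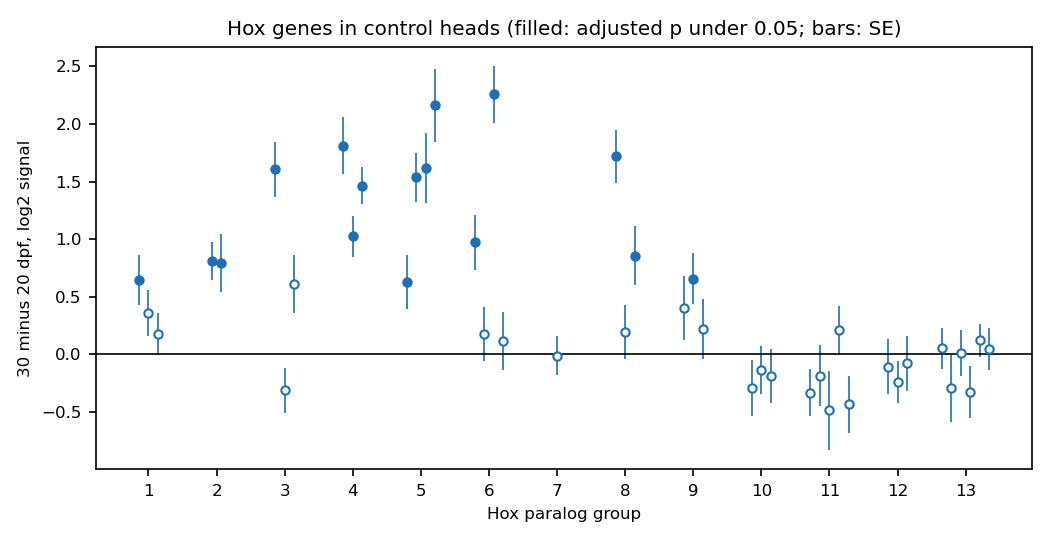
Difference in log2 signal between control heads at 30 and 20 dpf for each of the 43 measured Hox genes, placed by paralog group from 1 to 13; filled points passed the test (16 genes) and open points did not, and bars are the SE. The filled points lie in groups 1 to 8 but for 1 gene of group 9.

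Genes of tooth and bone mineralisation held the largest rises of all. Of the tooth and enamel matrix list 9 of 16 rose and 0 fell (56.2%, median 1.1), of the osteoblast and osteoclast list 13 of 29 with 0 falls (44.8%, median 0.33). The secretory calcium-binding phosphoprotein scpp7 was at 10.54, 11.01 and 10.95 at 30 dpf, against 6.90, 6.08 and 6.92 at 20 dpf, 18.4-fold higher (log2 difference 4.2, SE 0.27, adjusted p = 2.69e-11). In controls it had been between 4.93 and 5.43 at 5, 10 and 15 dpf, so the 3 pools at 30 dpf stand above those of every earlier age. Its relative scpp5 was at 9.32, 9.36 and 9.17 against 5.62, 4.95 and 5.24, a rise of 4.01 (SE 0.31, adjusted p = 5.41e-10), but it had also been at 8.26 at 5 dpf, with 4.97 and 5.29 at the next 2 ages. The enamel matrix gene ambn rose by 2.81, odam, made by cells at the tooth surface, by 2.05, and scpp1 by 2.03. 8 of the 16 tooth genes lie in the dimmest 33.3% on average, ambn and odam among them, and 5 members of the list were called with dim genes left out.

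Among bone genes spp1 (osteopontin, an acidic matrix protein of bone) was at 10.84, 10.63 and 10.81 at 30 dpf, against 8.32, 7.89 and 8.41 at 20 dpf, a rise of 2.55 (SE 0.22, adjusted p = 2.66e-09). The osteoblast membrane gene ifitm5 rose by 1.11, the phosphate-regulating peptidase phex by 1.05 and the mineralisation inhibitor mgp by 1.11. The collagenase mmp13b rose by 2.02, and genes of the bone-resorbing osteoclast rose with those of the bone-forming cells: mmp9 by 1.23 and the protease ctsk by 0.99. The osteoblast factor sp7 was at 8.35 ± 0.11 against 7.51 ± 0.06 (rise 0.84, adjusted p = 0.000148).

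The soft and cartilaginous matrix rose more evenly. Of 59 collagen and collagen-processing genes 39 rose and 0 fell (66.1%, median 0.61), and of 29 other cartilage genes 17 rose and 1 fell (58.6%, median 0.59). The largest of these rises were in genes that fold and modify collagen inside the cell rather than in the chains themselves. The collagen chaperone serpinh1b was at 10.47, 10.31 and 10.40 at 30 dpf, against 8.45, 7.75 and 8.56 at 20 dpf, a rise of 2.14 (SE 0.25, adjusted p = 5.24e-07), and its paralog serpinh1a rose by 1.79. Both genes are also counted in the list of the heat shock and unfolded protein responses below. The prolyl hydroxylase p3h1 rose by 1.67 and the lysyl hydroxylase plod2 by 1.57. Among the chains, chosen after their values were seen, col11a2 of cartilage was at 9.65 ± 0.05 against 8.65 ± 0.17 and col5a2a at 8.30 ± 0.04 against 7.44 ± 0.24, rises of 1.00 and 0.86. The main bone chain col1a1a was at 12.44 ± 0.04 against 12.08 ± 0.07; its 3 arrays at 30 dpf lie above those at 20 dpf, but the difference of 0.37 did not pass the test (adjusted p = 0.147). In cartilage the leucine-rich matrix protein chad rose by 1.16, matn1 by 1.17 and hapln1a, which links aggrecan to hyaluronan, by 1.09. The member that fell was sox5, a chondrocyte and neural transcription factor, at 8.89 ± 0.10 against 9.54 ± 0.16 (difference -0.65, adjusted p = 0.000177).

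**Figure D3:**
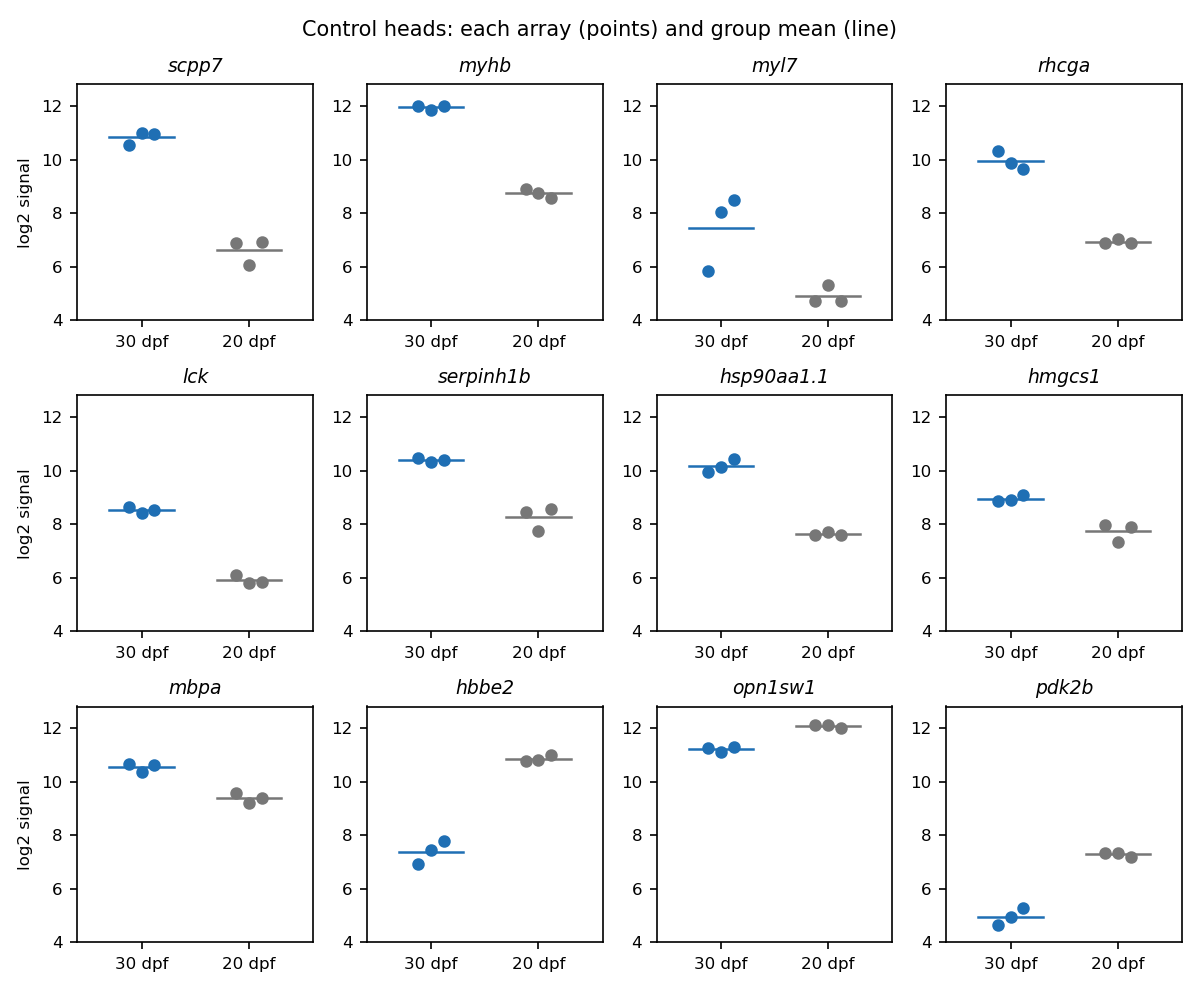
Log2 signal of 12 genes in each of the 3 control pools at 30 dpf (left in each panel) and at 20 dpf (right); points are arrays and horizontal lines are group means. In all 12 genes the 2 ages do not overlap, which follows from the choice for those among the 20 largest rises or falls. Mean differences ran from 4.2 for scpp7 to -3.47 for hbbe2. In myl7 the lowest pool at 30 dpf (5.85) lies far from the other 2.

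T cell and thymus genes came up from near the floor of the array. Of 33 measured members 13 rose and 2 fell (39.4%, median 0.23), and 23 of the 33 lie in the dimmest 33.3%; with dim genes left out 6 were called higher. The T cell kinase lck was at 8.65, 8.41 and 8.53 at 30 dpf, against 6.12, 5.79 and 5.84 at 20 dpf, 6.12-fold higher (log2 difference 2.61, SE 0.20, adjusted p = 4.69e-10). The recombinase rag1, which cuts antigen receptor genes in immature lymphocytes, was at 8.94, 8.94 and 8.60 against 6.64, 6.47 and 5.95, a rise of 2.47, and rag2 rose by 1.65. No pool overlapped between the ages in these genes, which for lck follows from how it was picked. The thymus lies beside the gills, at the rear edge of the labelled tissue, and the part of the unstated cut in these rises was not tested. The co-receptors of the T cell lineages rose as well, cd8a by 2.65, cd8b by 2.73 and cd4-1 by 1.9. In controls lck stood at 5.58 at 5 dpf, 5.25 at 10 dpf and 5.17 at 15 dpf, and rag1 at 5.74, 4.97 and 5.19. The 2 members that fell were tox, a nuclear factor that neurons express too (-0.56), and the chemokine ccl38.6 (-0.72, adjusted p = 0.0249), whose call was lost without the first pool at 30 dpf (-0.58) or without the second or the third at 20 dpf (-0.71 and -0.58).

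Antigen presentation genes rose beside them, 17 of 34 with 1 fall (50.0%, median 0.45). The invariant chain genes cd74a and cd74b, which escort class II molecules, rose by 1.27 and 1.65; cd74a was at 11.39 ± 0.15 against 10.12 ± 0.54. The class II gene mhc2daa is outside this list. It was at 6.69, 7.40 and 7.51 at 30 dpf, against 4.06, 5.45 and 3.97 at 20 dpf (rise 2.71, adjusted p = 6.5e-05). The class I gene mhc1uba was at 8.25, 8.91 and 8.85 against 6.37, 6.05 and 5.97 (rise 2.54, adjusted p = 2.74e-07), and mhc1uka rose by 1.64. The pools do not overlap in these genes, which for mhc2daa and mhc1uba follows from how they were picked. Class I and class II genes of zebrafish differ between individual fish in sequence and in which genes are present. Each pool of 5 fish can thus carry its own set. Such differences between pools were not tested. Immunoproteasome subunits, which cut peptides for class I, rose too, psmb12 by 1.03 and psmb9a by 0.78.

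Other blood cells moved less. Of the B cell list 5 of 18 rose and 1 fell (27.8%), of the neutrophil list 9 of 29 rose and 0 fell (31.0%), and of the macrophage list 6 of 37 rose and 2 fell (16.2%), the last below the 22.0% of all genes. Coro1a, an actin regulator of all leukocytes, rose by 1.21, and the macrophage perforin mpeg1.1 by 0.92. The microglial receptor p2ry12 went the other way, at 4.57 ± 0.21 at 30 dpf against 5.19 ± 0.11 at 20 dpf (-0.62, adjusted p = 0.0222), both under 6.06. This call was lost without the first pool at 30 dpf (-0.50) or without the third at 20 dpf (-0.56).

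The largest falls were in embryonic globins. The beta-type hbbe2 was at 6.94, 7.45 and 7.77 at 30 dpf, against 10.76, 10.81 and 10.99 at 20 dpf, 11.1-fold lower (log2 difference -3.47, SE 0.22, adjusted p = 2.69e-11). The alpha-type hbae1.1 was at 6.92, 7.05 and 7.11 against 10.62, 10.17 and 10.58, a fall of 3.43, and hbae3 fell by 1.52 after having stood at 10.26 at 15 dpf. All pools at 30 dpf lie below all pools at 20 dpf in these 3 genes, which follows from how they were picked. By their names hbae4 and hbbe3 are embryonic globins too, and they did not pass the test. Their differences were 0.32 and -0.06 (adjusted p = 0.227 and 0.870), with means under 6.06 at both ages. Over age hbae1.1 was at 9.55 at 5 dpf, 9.03 at 10 dpf and 11.47 at 15 dpf, so its highest control level was at 15 dpf. The adult genes hbaa2 and hbba2 read 3.77 and 3.71 at 30 dpf, against 3.98 and 3.91 at 20 dpf, far under 6.06 at both ages, so their probe sets say nothing of the adult globins that red cells contain. Globin genes lie close together and are alike in sequence, and probes could read more than 1 of them.

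Genes of red cell formation went the other way from these globins. Of the 21 genes of the erythroid and globin list 9 rose and 3 fell (42.9% and 14.3%, against 22.0% and 9.48% of all genes). The 3 that fell were the embryonic globins hbbe2, hbae1.1 and hbae3. The haem synthesis enzyme alas2 was at 9.28, 9.48 and 9.60 at 30 dpf, against 8.40, 8.03 and 8.29 at 20 dpf, a rise of 1.21 (adjusted p = 0.000204). The red cell transcription factors klf1 and gata1a rose by 1.72 and 1.11, the anion exchanger slc4a1a by 0.85 and the transferrin receptor tfr1a by 1.08.

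Many ionocyte genes rose. Of 43 ionocyte genes 19 rose and 2 fell (44.2%, median 0.30). The ammonia channel rhcga was at 9.94 ± 0.33 at 30 dpf, against 6.89, 7.02 and 6.90 at 20 dpf, 8.01-fold higher (log2 difference 3.0, SE 0.22, adjusted p = 2.15e-10). Ca15c, named by its annotation as a carbonic anhydrase, is outside this list. It was at 7.88, 7.46 and 7.36 against 4.56, 4.29 and 4.46, a rise of 3.13. The ammonia channels rhcgb and rhbg rose by 1.42 and 1.18, the ionocyte regulator gcm2 by 1.04 and the sodium pump subunits atp1a1a.3 and atp1b1a by 1.07 and 1.06. The sodium-proton exchanger slc9a3.2 and the sodium-chloride cotransporter slc12a10.2 rose by 0.88 and 0.95. Slc14a2, a urea transporter, rose by 2.51.

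Keratins and claudins were split, 20 of 68 rose and 6 fell (29.4% and 8.82%, close to the shares of all genes). The keratin krt93 was at 9.45, 9.86 and 9.84 at 30 dpf, against 7.13, 6.44 and 6.72 at 20 dpf, a rise of 2.96 (adjusted p = 4.33e-06), and krt94 rose by 1.42. The type I cytokeratin cyt1l was at 8.87, 9.13 and 8.91 against 10.15, 9.98 and 10.32, a fall of 1.18, and krt1-19e fell by 1.01. In controls cyt1l had been at 11.80 at 5 dpf, 10.72 at 10 dpf and 10.97 at 15 dpf. The basal keratin krt5 fell by 0.39 and the surface keratin krt4 stayed within its spread, at 12.21 against 12.12 (adjusted p = 0.583). Agr2, a disulfide isomerase needed for mucin secretion, rose by 1.5, and the mucin muc5.2 by 0.93.

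In the eye, photoreceptor genes were lower and lens genes mixed. Of 34 cone genes 13 fell and 1 rose (38.2% falls, against 9.48% of all genes), with a median of -0.32. The ultraviolet opsin opn1sw1 was at 11.25, 11.10 and 11.30 at 30 dpf, against 12.07 ± 0.06 at 20 dpf, a fall of 0.85 (SE 0.10, adjusted p = 3.11e-07). The blue opsin opn1sw2 fell by 0.84 and the red opsin opn1lw2 by 1.07. The pools of the 2 ages do not overlap in these 3 genes. The member that rose was the green opsin opn1mw4, at 8.66, 8.38 and 8.69 against 6.91, 6.51 and 7.45, 3.08-fold higher (log2 difference 1.62, adjusted p = 6.4e-05). It had been between 4.15 and 4.33 at 5, 10 and 15 dpf. The other red opsin, opn1lw1, was at 9.52 ± 0.08 against 9.49 ± 0.25 (adjusted p = 0.954), and the green opsins opn1mw3 and opn1mw1 did not pass the test either (-0.18 and -0.56). Red and green opsins are tandem copies, and probes may read more than 1 of them. Of the shared cone machinery the transducin subunit gnat2 fell by 0.60, gngt2b by 0.94 and the disc rim genes prph2a and prph2b by 0.77 and 0.83.

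Rod genes showed 7 falls and 0 rises among 22 measured (31.8% falls, against 9.48% of all genes). The count of falls went down to 2 without the third pool at 30 dpf and to 3 without the third at 20 dpf. It was 4 without the second at 30 dpf or the first at 20 dpf. The list's members had a median of -0.29. In the pigment epithelium rpe65a, the isomerase that remakes visual chromophore, was at 9.90, 9.61 and 9.64 at 30 dpf, against 8.68, 8.15 and 8.30 at 20 dpf, a rise of 1.34 (adjusted p = 9.23e-05). The retinoid carrier of the space between retina and pigment epithelium, rbp3, was at 10.38 ± 0.10 against 11.10 ± 0.02, a fall of 0.73 (adjusted p = 6.82e-05).

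Of 58 lens genes 17 rose and 5 fell (29.3% and 8.62%, against 22.0% and 9.48% of all genes), and 36 had no call. Beta crystallins and the alpha crystallins were among the rises and gamma M2 crystallins made up the falls. Crybb3 was at 8.94, 8.85 and 9.15 at 30 dpf, against 6.54, 7.11 and 6.88 at 20 dpf, a rise of 2.14 (SE 0.18, adjusted p = 1.9e-09), cryaa was at 8.82 ± 0.33 against 6.97 ± 0.59 (rise 1.85), and cryaba rose by 1.96. Crygm6, a gamma M crystallin outside the M2 group, rose by 2.66. Crygm2d17 was at 4.24, 4.98 and 4.53 against 6.97, 8.18 and 7.83, a fall of 3.07 (SE 0.44, adjusted p = 7.69e-06); in controls it had been at 9.83 at 5 dpf, 11.66 at 10 dpf and 11.19 at 15 dpf. Crygm2d1 fell by 1.17. 23 of the 58 lens genes lie in the dimmest 33.3%, and 11 rose with dim genes left out. The count of falls was 2 without the first pool at 30 dpf and 3 without the second at 30 dpf or the first at 20 dpf.

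In the brain, myelin genes rose and genes of neural progenitors and young neurons fell. Of 22 oligodendrocyte and myelin genes 12 rose and 1 fell (54.5%, median 0.50). The myelin basic protein mbpa was at 10.66, 10.34 and 10.62 at 30 dpf, against 9.56, 9.19 and 9.40 at 20 dpf, a rise of 1.16 (SE 0.16, adjusted p = 6.15e-06). The tight junction gene of myelin cldnk rose by 0.96, and the enzymes of myelin galactolipids ugt8 and fa2h rose by 0.96 and 0.86. Mbpa had been at 7.49 at 5 dpf, 7.19 at 10 dpf and 8.27 at 15 dpf, so its level went up at each age after 10 dpf. The enzyme aspa, which splits acetylaspartate, was the member that fell (-0.70, adjusted p = 0.00831).

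Of 49 neural progenitor and early neuron genes 24 fell and 2 rose (49.0% falls, median -0.34). Neurod6b, a factor of young forebrain neurons, was at 7.34, 7.33 and 7.83 at 30 dpf, against 8.30, 8.29 and 8.41 at 20 dpf, a fall of 0.83 (SE 0.12, adjusted p = 5.77e-06). The Notch target her4.1 of radial progenitors fell by 1.26, sox4a of newborn neurons by 0.79, pax6a by 0.78 and atoh7, the factor that starts retinal ganglion cells, by 1.11, with both means of atoh7 under 6.06. The list's mean signal was 7.47 ± 0.01 at 30 dpf and 7.84 ± 0.04 at 20 dpf, and its arrays do not overlap. Among 55 genes of mature neurons and synapses 11 fell and 5 rose (20.0% and 9.09%). The glutamate receptor genes grin1b and gria3a fell by 0.72 and 0.61, the neurofilament nefla rose by 1.1, and the synaptic gene snap25a was at 10.40 against 10.44 (adjusted p = 0.902). The count of falls in this list was 5 without the second or the third pool at 30 dpf and 6 without the first or second at 20 dpf, and without the first at 30 dpf 3 rose.

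Immediate early genes, which neurons and other cells switch on within minutes of a stimulus, fell in 10 of 36 cases and rose in 0 (27.8% falls, median -0.30). Fosab was at 7.32, 7.46 and 7.51 at 30 dpf, against 9.83, 10.00 and 9.26 at 20 dpf, 4.82-fold lower (log2 difference -2.27, SE 0.49, adjusted p = 0.000944). Npas4a fell by 1.09 and egr1 by 0.93. The ages do not overlap in these 3 genes, which for fosab follows from how it was picked. Without the first or the third pool at 30 dpf, or without the first at 20 dpf, 6 of the list were called lower. No source used here gives the time of day or the handling of the fish before sampling.

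Circadian clock genes were lower as well, 17 of 47 fell and 1 rose (36.2% falls, median -0.27). The Rev-erb repressor nr1d2a was at 7.04, 7.34 and 7.31 at 30 dpf, against 8.43, 8.32 and 8.62 at 20 dpf, a fall of 1.23 (SE 0.26, adjusted p = 0.000719). The opposing activator rorcb fell by 1.07, the D-box repressor nfil3-2 by 0.98 and the clock inhibitor cipca by 0.90. The groups of 3 arrays do not overlap in these 4 genes. The time of day is not known for either group, so a shift of phase and a change of level cannot be told apart. Without the first pool at 20 dpf 10 of the list fell.

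Among the pathways of growth, genes for cholesterol synthesis, for chaperones and for building ribosomes rose almost as blocks. Of 25 measured cholesterol genes 21 rose and 0 fell (84.0%, median 0.68), of 45 genes of the heat shock and unfolded protein responses 35 rose and 0 fell (77.8%, median 0.81), and of 52 ribosome biogenesis genes 42 rose and 0 fell (80.8%, median 0.85). Ribosomal protein genes did not join them, with 3 rises and 2 falls in 61 and a median of -0.01. Their rises numbered 1 without the second pool at either age and their falls 0 without the first or the third pool at either age.

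In the sterol pathway the mevalonate-forming pair hmgcs1 and hmgcra rose by 1.21 and 1.14, the squalene oxidase sqlea by 1.24, the decarboxylase mvda by 1.15 and the demethylase cyp51 by 0.98. Hmgcs1 was at 8.86, 8.89 and 9.09 at 30 dpf, against 7.97, 7.34 and 7.89 at 20 dpf (SE 0.15, adjusted p = 1.56e-06). Its control levels were 7.58 at 5 dpf, 7.71 at 10 dpf and 8.78 at 15 dpf, so 20 dpf was a low point between 2 high ages. The list as a whole had the same course, with mean signals of 6.80, 6.65, 7.21, 6.90 and 7.57 at 5, 10, 15, 20 and 30 dpf. Fatty acid synthesis and elongation genes rose in 11 of 23 cases and fell in 2 (47.8%), with 7 rises without the second pool at 20 dpf.

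The cytosolic chaperone hsp90aa1.1, which folds muscle myosin, was at 9.95, 10.13 and 10.41 at 30 dpf, against 7.59, 7.71 and 7.59 at 20 dpf, 5.80-fold higher (log2 difference 2.54, SE 0.19, adjusted p = 2.83e-10). Chaperones of the endoplasmic reticulum rose too, manf by 1.73 and hyou1 by 1.23, and so did the heat shock cochaperones dnaja1 by 1.41 and bag3 by 1.36. Of the ribosome biogenesis list, pprc1, a coactivator of growth genes, was at 7.73, 7.49 and 7.53 against 5.42, 5.25 and 5.53, a rise of 2.18 (SE 0.19, adjusted p = 3.03e-09). The GTPase gnl3 rose by 1.78, dkc1, which makes pseudouridine in ribosomal RNA, by 1.72, and nop58 of the box C/D particle by 1.62. The 3 arrays at 30 dpf lie above those at 20 dpf in every gene named here from the 3 lists. Ribosome biogenesis genes, too, had stood at 7.29 at 15 dpf, against 6.79 ± 0.04 at 20 dpf, while the mean at 30 dpf was 7.65 ± 0.05.

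**Figure D4:**
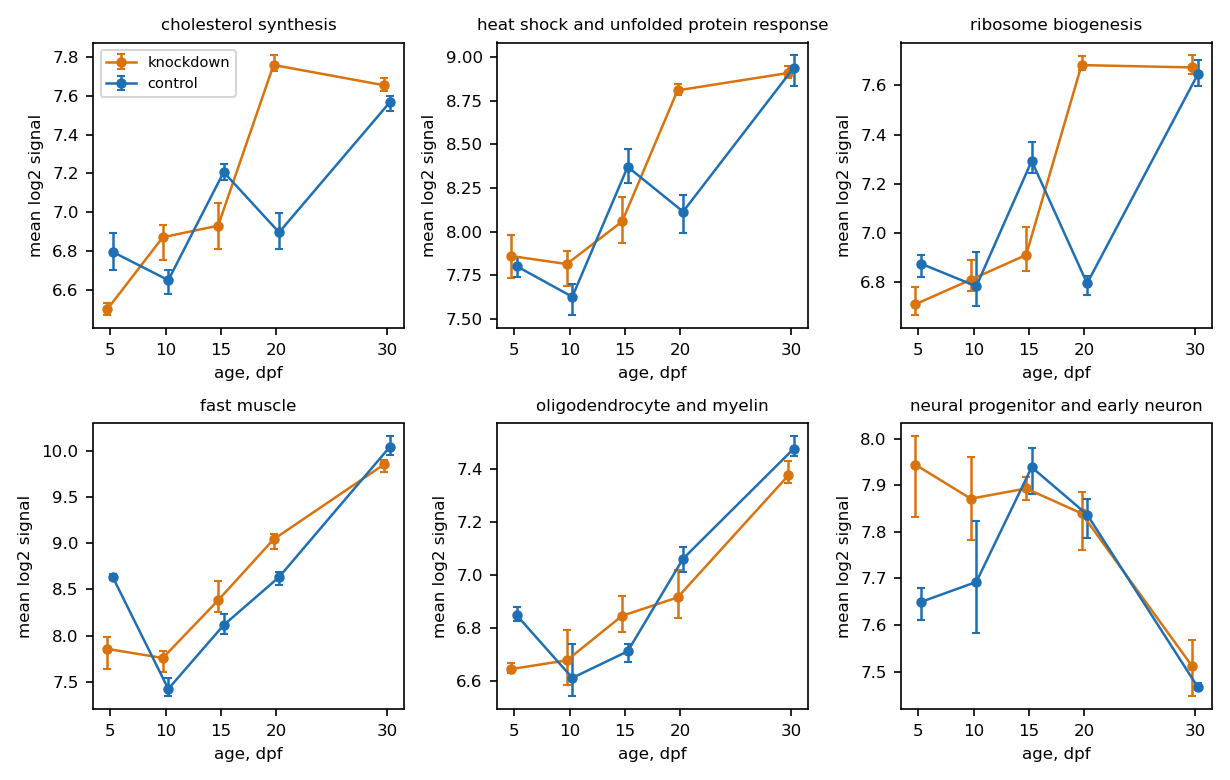
Mean log2 signal of the members of 6 gene lists at 5, 10, 15, 20 and 30 dpf in knockdown heads (orange) and control heads (blue); points are means over 3 arrays and bars run from the lowest to the highest array. In cholesterol synthesis, chaperones and ribosome biogenesis the control line dips at 20 dpf, where knockdown lies above it, and both lie close at 30 dpf; in fast muscle, myelin and neural progenitors both lines run the same way from 20 to 30 dpf.

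Genes of nutrient shortage and growth arrest fell in 18 of 46 cases and rose in 12 (39.1% and 26.1%, against 9.48% and 22.0% of all genes). Rises numbered 7 without the second pool at 20 dpf. The pyruvate dehydrogenase kinases, which hold back the use of glucose, had some of the largest falls of all genes. They are counted in the glycolysis list, and pdk2b and pdk2a are not members of this one. Pdk2b was at 4.65, 4.97 and 5.28 at 30 dpf, against 7.32, 7.35 and 7.19 at 20 dpf, 5.00-fold lower (log2 difference -2.32, SE 0.23, adjusted p = 2.54e-08), pdk2a fell by 1.85 and pdk4 by 0.94. Ccng2, a cyclin of resting cells, was at 7.55, 7.60 and 7.36 against 8.95, 8.84 and 8.79, a fall of 1.36, and sesn1 and eif4ebp3l, which restrain the growth kinase mTOR and translation, fell by 0.99 and 1.05. Among the rises were asns, which makes asparagine (1.21), the muscle ubiquitin ligase trim63a (1.52) and the ribosomal S6 kinase rps6kb1b (0.75). Further large falls lay outside the list. Klhl24b was at 6.18 ± 0.10 against 8.13 ± 0.20 (-1.95), and the growth-restraining factor hbp1 fell by 1.43. The stress-induced ndrg1b fell by 2.27 and slc43a2a, an amino acid transporter, by 1.49.

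Insulin and growth factor genes were divided, 10 of 45 rose and 9 fell (22.2% and 20.0%). The growth factor igf1 was at 7.5, 7.32 and 7.52 at 30 dpf, against 6.5, 6.38 and 6.29 at 20 dpf, a rise of 1.06 (SE 0.14, adjusted p = 2.07e-06), and the binding protein genes igfbp5a and igfbp3 rose by 0.82 and 0.74. Of the receptor genes insrb fell by 0.53 and igf1ra by 0.56. The receptor substrate irs2a fell by 0.85 and the kinase pdpk1a by 0.76. The ages do not overlap in any of the genes named here, and the list's share of rises is close to the 22.0% of all genes.

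The oxidative phosphorylation, glycolysis and cell division lists had shares of rises from 15.2% to 31.1%, against 22.0% of all genes. Their shares of falls all lay under the 9.48% of all genes. Oxidative phosphorylation subunits rose in 14 of 66 cases with 0 falls (21.2%), and in 7 to 9 without the second pool at 20 dpf or any 1 pool at 30 dpf. Glycolysis genes rose in 14 of 45 cases and fell in 4 (31.1%), the pyruvate dehydrogenase kinases among the falls. Of 46 genes of cell division and DNA replication 7 rose and 2 fell (15.2% and 4.35%), the median was -0.02, and 4 rose without the second pool at 20 dpf. The helicase subunits mcm3 and mcm6 rose by 1.31 and 0.61; mcm3 was at 7.59, 6.67 and 8.26 at 30 dpf, against 6.24, 6.39 and 5.96 at 20 dpf, with the second pool at 30 dpf close to the earlier ones. Hypothalamic neuropeptides and pituitary hormones gave 1 and 0 rises and 6 and 3 falls in 50 and 23 genes, most of them in the dimmest 33.3%. Without the first pool at 30 dpf 2 neuropeptide genes fell and without the third 1, and without the third pool at 20 dpf 1 pituitary gene fell.

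Organs behind the gills were for the most part dim at both ages. Of 31 exocrine pancreas genes 2 rose, of 45 liver genes 3 rose and 2 fell, and of 34 intestine genes 7 rose, 3 without the third pool at 30 dpf and 4 without the second or the third at 20 dpf. The mean signal of the pancreas list ranged from 5.16 to 5.55 over the 3 arrays at 30 dpf and from 4.97 to 5.09 at 20 dpf; for liver the ranges were 5.05 to 5.19 and 4.96 to 5.01, and for intestine 5.45 to 5.76 and 5.23 to 5.38. Some of their genes were above 20 dpf in all 3 pools at 30 dpf and spread widely among those pools. The trypsin gene prss59.1 was at 8.58, 7.05 and 6.06, against 4.63, 4.88 and 4.88 at 20 dpf (rise 2.43, adjusted p = 0.00343), the liver protein fetub at 8.01, 6.96 and 6.23 against 4.84, 4.90 and 4.51 (difference 2.32, adjusted p = 0.0814), and the cadherin cdh17 of gut and kidney at 5.68, 5.55 and 7.33 against 4.63, 4.64 and 4.81 (rise 1.49, 0.91 without the third pool at 30 dpf). The pool highest in prss59.1 and fetub was the one lowest in myl7, so these signals did not move together over the pools. The part of such tissue in the other results was not tested.

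Further genes with large changes follow. Gstp1.1, a glutathione transferase, was at 8.06, 8.01 and 8.34 at 30 dpf, against 5.54, 4.98 and 5.26 at 20 dpf, a rise of 2.88 (adjusted p = 3.28e-07). The cGMP phosphodiesterase pde9ab was at 5.41, 5.59 and 5.31 against 7.56, 7.12 and 8.07, a fall of 2.15 (adjusted p = 1.22e-07), and the linker histone gene histh1l1 fell by 2.2. Fhl5, of a family of LIM domain proteins, was at 8.88, 8.89 and 8.87 against 6.33, 6.29 and 6.38, a rise of 2.55 (adjusted p = 2.69e-11). Mfap4.12, by its name a microfibril-associated protein, was at 8.15, 8.25 and 7.93 against 5.49, 5.32 and 5.1, a rise of 2.81. Bnip4, by its name a BCL2 interacting protein, was at 5.42, 5.15 and 5.46 against 6.84, 6.70 and 6.77, a fall of 1.43, and the lipase family gene pnpla4 fell by 1.51. Of the keratin and claudin list krt96 had the largest fall, by 1.63, with both means under 6.06. Fosb, of the same family as fosab, fell by 1.46 (adjusted p = 0.0457). Its call was lost without any 1 pool at 30 dpf and without the first or second at 20 dpf, with differences of -1.52 to -1.30. In 2 of the largest falls 1 pool lay far below the others. Paqr3b, a receptor-family protein of the Golgi, was at 8.31, 8.06 and 4.30 at 30 dpf, against 9.06, 8.98 and 9.06 at 20 dpf, and the difference of -2.14 (adjusted p = 0.0048) was -0.85, still past the test (adjusted p = 0.0288), without the third pool at 30 dpf, and -0.99 over the mean of the gene's probe sets. The clustered protocadherin pcdh2ab7 was at 6.10, 5.52 and 3.51 against 6.71, 6.74 and 6.35, and its fall of 1.56 was -0.79, past the threshold no longer, without that pool.

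The same step in knockdown heads, 30 minus 20 dpf over 6 other arrays, shared part of these changes. There 1382 genes rose (7.18%) and 850 fell (4.41%). Higher in both steps were 952 genes, which is 22.5% of those that rose in controls and 68.9% of those that rose in knockdown; lower in both were 418, which is 22.9% and 49.2%. Over all 19260 genes the differences of the 2 steps correlated at 0.527 (Pearson), a description across genes, which are not independent. The difference between the steps passed the test in 1457 genes (7.56%), 1181 with the more positive difference in controls (6.13%) and 276 with the more negative one (1.43%). Without the second control pool at 20 dpf this count was 886, and without the third at 30 dpf it was 909; the knockdown step itself counted 1211 genes without the first knockdown pool at 30 dpf and 1148 without the third at 20 dpf.

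Several tissue lists moved the same way in both steps, with fewer calls among matrix genes in knockdown. In fast muscle 46 of 48 genes rose in controls and 35 in knockdown, with medians of 1.41 and 0.81. In myelin 12 of 22 rose in controls and 13 in knockdown, with a median of 0.50 in each, and mbpa rose by 1.16 and 0.96. In the T cell list 13 of 33 rose in controls and 14 in knockdown, and lck rose by 2.61 and 2.43. Falls of neural progenitor genes numbered 24 of 49 in controls and 17 in knockdown, both with a median of -0.34, and falls of cone genes 13 and 12 of 34. The embryonic globins hbbe2 and hbae1.1 changed by -3.47 and -3.43 in controls and by -2.65 and -3.05 in knockdown. The test of the difference between the steps called 0 members of the cone and neural progenitor lists, 1 each of the myelin and T cell lists, and 13 of the fast muscle list, all 13 with the larger rise in controls. Of the collagen list 39 of 59 rose in controls and 17 in knockdown (medians 0.61 and 0.27), with 10 differences between the steps called, each with the larger rise in controls. Of the tooth list 9 of 16 rose in controls and 6 in knockdown, with 4 differences called, and of the other cartilage genes 17 of 29 and 3, with 0 called. Of the osteoblast and osteoclast list 13 of 29 rose in controls and 8 in knockdown, with 2 differences called. Its medians were nearly equal, 0.33 and 0.32. Hox genes of groups 3 to 8 rose in 12 of 18 cases in controls (median 1.00) and in 10 in knockdown (median 0.58).

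The 3 growth pathways rose widely in the control step, with few calls in the knockdown step. Of the cholesterol list 21 of 25 rose in controls, against 1 rise and 1 fall in knockdown (medians 0.68 and -0.14), and the difference between the steps passed in 18. Of the chaperone list 35 of 45 rose against 6 (medians 0.81 and 0.05), with 22 differences between the steps, and of the ribosome biogenesis list 42 of 52 against 1 (medians 0.85 and 0.04), with 37. In gnl3 the step was 1.78 in controls and 0.13 in knockdown, a difference of 1.65 (adjusted p = 8.63e-05). The levels lay apart at 20 dpf in all 3 lists. At 30 dpf the arrays of the 2 treatments overlapped in chaperones and ribosome biogenesis, while for cholesterol synthesis they ran from 7.62 to 7.69 in knockdown, against 7.52 to 7.60 in controls. Ribosome biogenesis genes had a mean signal of 7.66 to 7.72 over the 3 knockdown arrays at 20 dpf, against 6.75 to 6.82 over the control arrays, and of 7.65 to 7.72 in knockdown at 30 dpf, against 7.60 to 7.70 in controls. Knockdown minus control passed the test at 20 dpf in 46 of the 52, each with knockdown higher, and at 30 dpf in 0; at 30 dpf 1 member each of the cholesterol and chaperone lists passed. Over all genes that comparison called 14.5% at 20 dpf and 1.00% at 30 dpf. The control step, the difference between the steps and knockdown minus control at 20 dpf all use the same 3 control arrays at 20 dpf. Their counts are therefore not separate evidence.

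In the nutrient shortage and growth arrest list part of the members differed the other way. Of that list 18 of 46 fell in controls and 0 in knockdown, and the difference between the steps was more negative in controls for 7 and more positive for 2. Eif4ebp3l was at 6.86 ± 0.16 at 30 dpf and 7.91 ± 0.17 at 20 dpf in controls, against 7.26 ± 0.21 and 6.81 ± 0.27 in knockdown, so that its step differed by -1.5 (adjusted p = 0.000246). For klhl24b, which is outside that list, the step was -1.95 in controls and -0.01 in knockdown. In the cell division and DNA replication list 0 of 46 genes rose and 17 fell in knockdown (median -0.44), against 7 rises and 2 falls in controls. There 11 differences between the steps passed the test, each more positive in controls. The list's mean signal at 20 dpf was 7.12 ± 0.08 in knockdown and 6.72 ± 0.06 in controls. At 30 dpf it was 6.69 ± 0.05 and 6.77 ± 0.09. Knockdown minus control passed the test in 15 members at 20 dpf, each with knockdown higher, and in 1 at 30 dpf, with knockdown lower. Mcm3 rose by 1.31 in controls and fell by 1.91 in knockdown, and mhc1uba rose by 2.54 and fell by 2.02. Genes that rose in one step and fell in the other numbered 57. The difference between the steps passed the test in all 57, which follows from how they were picked and adds no evidence.

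**Figure D5:**
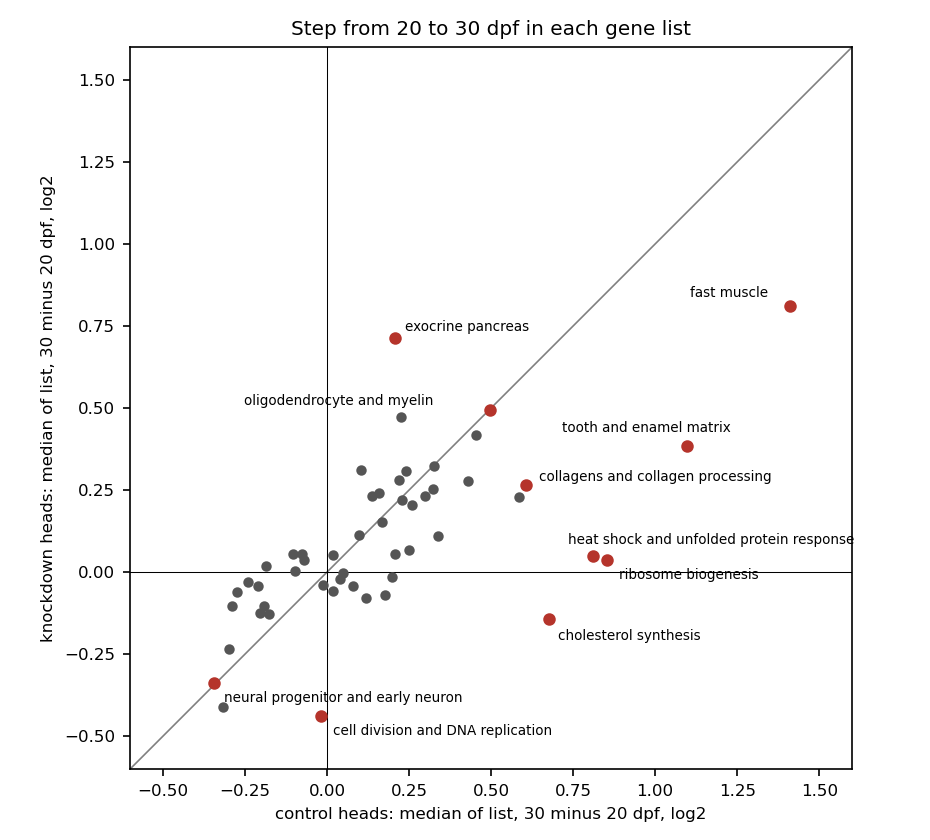
Median difference, 30 minus 20 dpf in log2 signal, of each of the 52 gene lists in control heads (horizontal axis) and in knockdown heads (vertical axis); the diagonal marks equal steps. Cholesterol synthesis, chaperones and ribosome biogenesis lie at 0.68 to 0.85 in controls and near 0 in knockdown, while myelin (0.50 and 0.50) and neural progenitors (-0.34 and -0.34) lie on the diagonal and fast muscle at 1.41 and 0.81.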

How the data were processed

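Total RNA of pooled heads was measured on 30 single-colour arrays, 6 of them the control arrays at 30 and 20 dpf. The values are log2 signals per probe set that the authors deposited after RMA normalization, per the submitters' processing notes, with no version or settings stated. Log2 values ran from 0.987 to 14.2 over 75212 probe sets. Of these 20806 carried 1 gene symbol in the platform annotation, 855 several and 53551 none; 20323 symbols were updated through their gene identifiers, and only probe sets with 1 symbol were used. The probe set with the highest mean over all arrays stood for its gene, which left 19260 genes, 1365 of them with a choice of probe sets. The number of arrays limits the precision, and the median spread within groups was 0.152 (SD).

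One mean per group was fitted over all 30 arrays with lmFit and eBayes of limma 3.58.1 in R 4.3.3 (20 residual degrees of freedom, two-sided tests). Benjamini-Hochberg adjustment ran over the 19260 genes, with a threshold of 0.05. The differences were 30 minus 20 dpf in control and in knockdown heads, the control step minus the knockdown step, and knockdown minus control at each age. The 2 steps share no array with each other, but the other comparisons reuse their arrays. The fit was tested on simulated data in which 200 genes were changed at 30 dpf in controls. It recovered 27.9% of log2 changes of 0.5, 85.7% of changes of 1 and 99.4% of changes of 2, with 4.94% of calls false. Far more genes passed in the data than were changed in the simulation, so these shares may differ for the data. Tables were handled with pandas 2.3.3 and numpy 2.4.6 in Python 3.11.15 and, in R, data.table version 1.17.8, and plots were drawn with matplotlib 3.10.9.

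The 52 gene lists hold 2200 distinct members, and 1846 genes of them were measured; 3 members whose alias belongs to an unrelated gene were left out. The arrays and lists were chosen with earlier results of these data known, so counts over lists are descriptions. Named genes are grb10a, the 20 largest rises and 20 largest falls whose arrays do not overlap (clone symbols passed over), up to 6 called members of each list in each direction by p, and the opsin, globin, troponin, myosin and ionocyte transporter families; of these, examples are given. Tissue markers are named as such. The choice of col5a2a, col11a2, hoxb4a, hoxc6a and the other Hox genes was made with their values in view. The alternatives tried were robust eBayes with an intensity trend, leaving out dim genes, median centring, another round of quantile normalization, the mean of a gene's probe sets, every probe set singly, array weights, only the compared arrays, the replicate number as a block, and leaving out each array. The annotation used here gives no sequence or position for the probe sets, and none is reported.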

Additional observations from a re-analysis of the deposited data

Results flagged for a closer look

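The step from 20 to 30 dpf was measured under the same contrast in control and in knockdown heads, and the results collected here are those in which the 2 steps differed by the test of the difference itself (limma, adjusted p under 0.05 over all genes). This was so for 1457 genes, of which those named in the text follow, each with the control step minus the knockdown step in log2 signal. Groups of 3 arrays are too small for a test of single outlying arrays.

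In the tooth, bone and collagen genes named here the rise was larger in controls. The differences were 2.29 for scpp5, 1.9 for scpp1, 1.58 for ambn, 1.33 for spp1 and 0.96 for ifitm5. They were 2.00 for serpinh1b, 1.42 for serpinh1a, 1.09 for p3h1 and 0.94 for plod2. Scpp7, the gene with the largest rise, is not among them. In fast muscle they were 1.41 for myhb, 1.08 for casq1a, 0.97 for actn3a, 0.96 for tnni2b.2 and 0.87 for myoz1a, and fhl5 stood at 1.21.

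Among immune genes mhc1uba differed by 4.55, mhc2daa by 2.92 and mhc1uka by 2.67, genes whose content varies between fish, while ccl38.6 differed by -1.19 and p2ry12 by -1.10. The embryonic globin hbae3 differed by 1.62, since it fell further in knockdown. Crybb3 differed by 0.81 and crygm2d17 by -1.98 in the lens, rpe65a by 1.79 and rbp3 by -0.56 at the back of the eye, and aspa by -0.93 in the brain. Rhcga differed by 1.5, ca15c by 1.53, krt94 by 0.61, agr2 by 1.58 and muc5.2 by 1.74.

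The sterol enzymes differed by 1.54 for hmgcs1, 1.34 for sqlea, 1.27 for cyp51, 1.19 for hmgcra and 1.15 for mvda. The chaperones differed by 2.11 for manf, 1.95 for hsp90aa1.1, 1.31 for hyou1 and 0.84 for dnaja1. Genes of the ribosome biogenesis list differed by 2.01 for pprc1, 1.65 for gnl3, 1.51 for dkc1 and 1.46 for nop58. Asns differed by 1.33 and rps6kb1b by 0.73. The step was more negative in controls for further genes, with -1.94 for klhl24b, -1.55 for ndrg1b, -1.52 for pdk2b, -1.50 for eif4ebp3l, -1.42 for hbp1, -1.27 for pdk2a, -1.26 for sesn1, -1.06 for ccng2 and -0.75 for pdk4. The amino acid transporter slc43a2a differed by -1.88, bnip4 by -1.13, cipca by -0.94 and pdpk1a by -0.95. Irs2a differed by 1.33, having fallen further in knockdown.

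DNA replication genes differed by 3.23 for mcm3 and 0.99 for mcm6. Among the remaining genes gstp1.1 differed by 1.57, mfap4.12 by 1.54, pde9ab by -1.14, histh1l1 by -1.22 and pnpla4 by -2.05. Prdx1 differed by 1.01 and nqo1 by 1.01, both enzymes against oxidants. In fatty acid oxidation hadhab differed by 0.81, hadh by 0.66 and cpt1b by -0.65, and in yellow pigment cells gch2 differed by 1.3.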

How the results depend on the processing

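The control comparison gave 6061 genes, and its count stayed within 1.5 times of this under the alternatives run except with every probe set tested singly (10637, over 75212 probe sets). Leaving out 1 array gave 4464 to 5240. The split into 4235 higher and 1826 lower genes became 3635 and 2289 after a second quantile normalization. The background shares of 22.0% and 9.48% thus depend on the normalization. The replicate number as a block gave 6108 over all arrays and 7267 with only the compared ones. Same-numbered arrays of the 2 control ages deviated from their group means with correlations of 0.113, 0.0191 and -0.00182, so the numbers do not pair them. Called members of the lists, 715, lay between 580 and 953. The knockdown step gave 2232 genes, 3443 with every probe set tested singly and 1148 to 1868 with 1 array left out. The difference between the steps gave 1457, 2693 with array weights, 2405 with the replicate block on only the compared arrays, and 886 to 1302 with 1 array left out. The genes that turned direction, neither with a call, were grb10a (-0.00136 after a second quantile normalization), and opn1lw1 (-0.0158 after it, -0.0575 with array weights, and between -0.117 and 0.114 with 1 array left out). The cause of these moves was not tested. Of 186 named genes called in controls 179 kept their call under every alternative in which they were tested. The others were fosb, ccl38.6, p2ry12, pcdh2ab7, paqr3b (with only the compared arrays), gch2 and gfap. Named genes were picked mainly by large changes or small p in the same fit, so this share does not carry over to all called genes. Dim genes were not tested in the setting that leaves them out. Signals near the floor limit what dim genes can show. Pools of whole heads, an unstated time of day and an unstated plane of dissection limit what these counts say of single tissues.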

Other observations

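Inner ear genes changed in control heads at 30 dpf about as often as all genes did. Of 30 measured genes 7 rose and 3 fell (23.3% and 10.0%, median 0.02), and 4 rose with dim genes left out. The otolith matrix gene otomp was at 7.5, 7.58 and 7.49 at 30 dpf, against 5.90, 5.83 and 5.39 at 20 dpf, a rise of 1.82 (adjusted p = 0.00147). Stm, which shapes the growing otolith crystal, rose by 1.29, and tectb, of the tectorial and otolithic membranes, by 1.63. The hair bundle cadherins pcdh15b and pcdh15a fell by 0.71 and 0.51. Pigment cell genes rose in 8 of 42 cases and fell in 3 (7.14% falls), with 3 to 5 rises without the first or the third pool at 30 dpf or the second or the third at 20 dpf. Among them the guanine-forming pnp4a of iridophores rose by 0.92 and the pteridine enzyme gch2 of xanthophores by 0.85 (0.63 and no longer past the test without the second pool at 20 dpf), and pax7a fell by 0.52. In glia s100b rose by 1.05, the brain aromatase cyp19a1b of radial glia by 0.81 and gfap by 0.58, the last with its call lost without the second pool at 20 dpf (0.52).

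Fat and vessel genes rose more often than the 22.0% of all genes. Of 26 adipocyte genes 9 rose and 0 fell (34.6%). The enzyme of the last step of triglyceride synthesis, dgat2, was at 7.99, 7.78 and 7.75 at 30 dpf, against 6.03, 5.77 and 5.62 at 20 dpf, a rise of 2.03 (SE 0.23, adjusted p = 1.84e-07), and its step in knockdown was 1.66. Complement factor D, cfd, an abundant protein of fat cells in mammals, rose by 1.01 and the factor cebpa by 0.62. Of 38 endothelial genes 14 rose and 1 fell (36.8%), with 8 rises without the first pool at 30 dpf, 7 without the second and 9 without the third at 20 dpf. The transcription factor fli1rs rose by 0.95, the lymphatic receptor lyve1b by 0.69 and the clotting protein gene vwf by 0.53. Of 31 antioxidant and xenobiotic genes 12 rose and 1 fell (38.7%), among them prdx1 by 0.95, the glutathione reductase gsr by 0.63 and nqo1 by 0.52. Fatty acid oxidation genes rose in 10 of 29 cases and fell in 2 (34.5%). The matrix enzymes hadh and hadhab rose by 0.67 and 0.62, whereas cpt1b, of the entry step into mitochondria, fell by 0.53. Of 23 glucocorticoid genes 7 fell and 2 rose (30.4% falls), with 4 falls without the first pool at 30 dpf; the receptor gene crhr1 of the stress axis fell by 0.55 and tat, which degrades tyrosine, rose by 1.00.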
